A study of Mus musculus with 6 samples.

Results

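The enzymes of glycolysis, the pentose phosphate pathway, the pyruvate dehydrogenase step and the tricarboxylic acid (TCA) cycle were followed in leukemic mouse bone marrow. Genes were taken by a rule on symbols alone, and 39 of the 9295 genes of the deposited count table met it. The rule and the gene lists used below were chosen with earlier results of these data known. The hexokinase genes Hk1, Hk2 and Hk3, and Pfkm, Ldhb, Pgd, Pdha1, Idh1, Ogdh, Mdh1 and Mdh2, were not analysed here. RNA came from bone marrow of mice with acute myeloid leukemia, and the 6 libraries form 2 groups by their labels. The 3 libraries called KO carry a knockout of Papola, the gene of the canonical nuclear poly(A) polymerase, and the 3 called Con carry the floxed gene on both alleles. All 6 share the tissue and the cell type label leukemia. The labels name neither the Cre driver nor the agent that caused the leukemia, nor age, sex, sort or batch. Nor do they state that each library is from an animal of its own, so the spread behind the p-values below may be technical. The comparison describes how gene expression of bulk leukemic marrow differs between the libraries labelled KO and those labelled Con.

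Glycolysis splits glucose into pyruvate in the cytosol with a small yield of ATP. Lactate dehydrogenase can then reduce pyruvate to lactate, or the pyruvate dehydrogenase complex can turn it into acetyl-CoA for the TCA cycle in the mitochondrion. The pentose phosphate pathway leaves glycolysis at glucose 6-phosphate. Its oxidative branch makes NADPH, and its non-oxidative branch exchanges sugar phosphates with glycolysis and supplies ribose for nucleotides. Many glycolytic genes are known targets of the hypoxia-inducible factor HIF-1 and of Myc, and neutrophils use pentose phosphate NADPH for the oxidative burst.

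Counts summed to 8875022 to 9768143 per KO library and to 11253932 to 11436216 per Con library. Papola itself (gene ID 18789) was at 342, 361 and 314 counts-per-million (CPM, after TMM scaling) in KO, against 284, 297 and 291 CPM in Con. Counts per gene do not separate out the deleted part, so this level does not check the labels, and every direction below is that of the libraries labelled KO against those labelled Con. Con replicates 2 and 3 were far more alike than the other pairs of a group, with a chi-square per degree of freedom of 1.68 against 17.7 to 23.7. With both summed as 1 sample, 10 of the enzyme genes were higher and 22 lower in KO, against 10 and 26 with them kept apart. Marker genes of several cell types differed between the groups. All 19 late neutrophil markers were higher in KO and took 16.1% to 18.7% of counts in KO and 1.06% to 1.16% in Con. All 7 promyelocyte granule markers (0.403% to 0.607% of counts in KO and 0.0803% to 0.0869% in Con) and all 12 erythroid markers tested (1.59% to 2.27% of counts in KO and 0.0398% to 0.0647% in Con) were higher too. Of 16 macrophage markers, 7 were higher and 9 lower, and their sum was 0.176% to 0.290% of counts in KO and 2.46% to 3.45% in Con. Of 11 T and NK cell markers, 9 were higher and 2 lower (0.0194% to 0.0201% of counts in KO and 0.0463% to 0.0698% in Con). Of 6 B cell markers, 4 were higher and 0 lower (0.00804% to 0.0217% of counts in KO and 0.00492% to 0.00891% in Con). Of 7 markers of stroma and endothelium, 6 were higher and 1 lower (0.0292% to 0.0478% of counts in KO and 0.0423% to 0.0451% in Con), and of 4 megakaryocyte markers, 2 were higher and 1 lower (0.0105% to 0.0209% of counts in KO and 0.0222% to 0.0247% in Con). Vpreb2, Ncr1 and Sele had no count in Con, and no other listed marker was at 0 over a group. Bulk RNA does not tell whether leukemic or other cells carried these markers. The part of these cell types in the results below was not tested. In such bulk samples, fewer cells of a type and less RNA per cell cannot be told apart.

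Most of the enzyme genes were lower in KO, with the deepest falls in glycolysis, while all 5 pentose phosphate genes measured were higher. All 39 genes passed the filter on low counts. At an adjusted p of 0.05 (edgeR quasi-likelihood test, Benjamini-Hochberg over 8358 genes), 26 were lower, 10 higher and 3 did not pass. Over all genes tested, 42.4% were lower and 39.6% higher in KO. Calls of at least 2-fold counted 11 lower and 6 higher enzyme genes, against 23.8% and 22.8% of all genes. The median log2 fold change was -0.40 over the 39 genes and -0.06 over all genes tested. Since 82.0% of all genes passed the test, passing by itself does not set these enzymes apart, and direction, size and pattern by branch are described below. The 3 values of KO lay outside the range of Con in all but 2 of the 39 genes, against 84.5% of all genes tested. Scaled by library size only, the median of all genes moved by -0.35, and 6 enzyme genes were higher and 29 lower, where 29.8% of all genes were higher and 53.6% lower. Fold changes below are log2, KO less Con, after TMM scaling. SE is the size of the log2 fold change over the square root of the test's F statistic, and was not estimated separately.

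**Figure D1:**
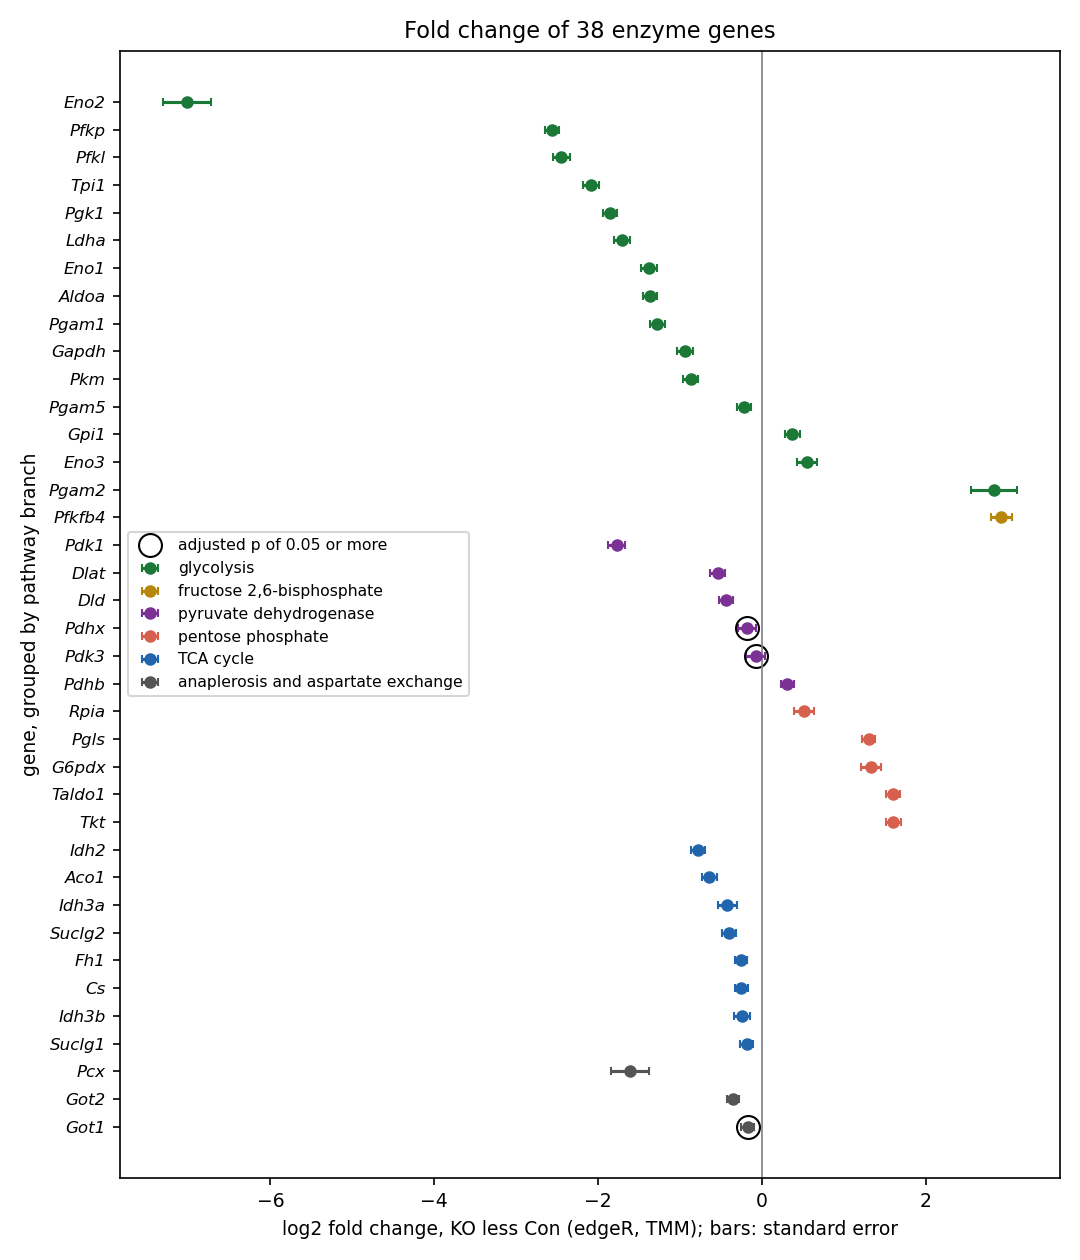
Log2 fold change of 38 of the enzyme genes (KO less Con, after TMM scaling, x axis) by pathway branch. Bars are standard errors taken from the F statistic, and circles mark the 3 genes that did not pass. Glycolytic genes run down to -7.02 (Eno2), all 5 pentose phosphate genes lie above 0 (0.52 to 1.60), and the TCA cycle genes drawn lie between -0.78 and -0.18; with library size only, Pdhb turned to -0.042 and no other called gene changed sign.

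Glycolysis carried most of the reads of these enzymes and was the branch with the deepest falls. Its 15 genes took 1.41% to 1.56% of counts in KO and 3.96% to 4.24% in Con, and 12 of them fell while 3 rose (42.4% and 39.6% of all genes), with a median log2 fold change of -1.36. Grouped here by its symbol and counted among the 12 is Pgam5, which is no enzyme of glycolysis. Among the upper steps the falls were largest at the committing step. Pfkl (gene ID 18641), the liver-type phosphofructokinase subunit, had 76.1, 61.8 and 61.0 CPM in KO, against 386, 352 and 347 CPM in Con (log2 fold change -2.45, SE 0.11, adjusted p = 5.10e-08). Pfkp (56421), the platelet-type subunit, had 90.8, 92.8 and 90.1 CPM in KO, against 588, 515 and 515 CPM in Con (log2 fold change -2.56, SE 0.09, adjusted p = 1.46e-08). Every KO library lay below every Con library for both, and the fitted levels were 5.45-fold and 5.91-fold lower. Per kilobase of exon, Pfkl made up 43.4% to 49.1% in KO and 43.1% to 44.1% in Con of the summed level of the pair, so the groups overlapped in this share. In the same libraries macrophage markers took 0.176% to 0.290% of counts in KO and 2.46% to 3.45% in Con, and late neutrophil markers 16.1% to 18.7% of counts in KO and 1.06% to 1.16% in Con. Their part in the falls was not tested.

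The following steps fell as well. Aldoa (11674), aldolase A, which cleaves fructose 1,6-bisphosphate, averaged 1518 ± 80.6 CPM in KO and 3906 ± 83.4 CPM in Con (SD, n = 3 each; log2 fold change -1.36, SE 0.09, adjusted p = 6.03e-07). Tpi1 (21991), triose phosphate isomerase, had 404, 413 and 358 CPM in KO, against 1770.5, 1546 and 1664 CPM in Con (log2 fold change -2.08, SE 0.10, adjusted p = 7.88e-08), and its KO libraries were 4.24-fold lower with no overlap. Gapdh (14433), which makes the first NADH of the pathway, averaged 4624 ± 247 CPM in KO and 8858 ± 175 CPM in Con (log2 fold change -0.94, SE 0.09, adjusted p = 9.51e-06). This common reference gene of expression assays was 1.92-fold lower in KO. Pgk1 (18655), the first kinase to yield ATP, averaged 955 ± 36.8 CPM in KO and 3451 ± 85.2 CPM in Con (log2 fold change -1.85, SE 0.09, adjusted p = 7.89e-08). Pkm (18746), pyruvate kinase, which closes glycolysis, averaged 3180.2 ± 143 CPM in KO and 5811 ± 152 CPM in Con (log2 fold change -0.87, SE 0.09, adjusted p = 1.27e-05). Reads per gene do not tell its splice forms apart. Gapdh had the highest level per kilobase of exon of the 39 genes, with 3093 ± 165 in KO and 5925 ± 117 in Con (CPM per kilobase, SD, n = 3 each).

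Gpi1 (14751), glucose 6-phosphate isomerase, stood apart from the steps that follow it. It acts at the branch point with the pentose phosphate pathway and had 2851, 2479 and 2543 CPM in KO, against 2070.2, 2031 and 1969.6 CPM in Con (log2 fold change 0.38, SE 0.09, adjusted p = 0.00384). The groups did not overlap and KO was 1.30-fold higher, but with library size only the difference was 0.018 (adjusted p = 0.868). Counts of Gpi1 for each count of Pfkl, a ratio within a library that no scaling changes, were 37.5, 40.1 and 41.7 in KO, against 5.37, 5.76 and 5.67 in Con.

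The enolases, which make phosphoenolpyruvate, moved apart by form. Eno1 (13806), the form of most tissues, had 1389, 1250.3 and 1219 CPM in KO, against 3313, 3244 and 3471 CPM in Con (log2 fold change -1.38, SE 0.09, adjusted p = 7.30e-07). Eno2 (13807), known as the neuronal form, showed the deepest fall of the 39 genes. It was counted 3, 3 and 1 times in KO, against 411, 533 and 539 times in Con (log2 fold change -7.02, SE 0.29, adjusted p = 3.74e-08). Over the groups that is 135-fold lower in KO, with an exact 95% counting interval of 65.2 to 336. This interval is wider than the SE implies, so the SE understates the error at these low KO counts. Con replicate 1 was the lowest of the Con libraries for Eno2. It had the lowest Con share of macrophage markers (2.46%) and the highest of T and NK cell (0.0698%) and erythroid markers (0.0647%). Any link of these shares to Eno2 was not tested. Eno3 (13808), known as the muscle form, had 96.5, 73.8 and 102 CPM in KO, against 65.7, 60.4 and 59.8 CPM in Con and rose (log2 fold change 0.55, SE 0.12, adjusted p = 0.00202), a call that was lost with library size only (0.19, adjusted p = 0.16). Per kilobase of exon, Eno3 made up 8.75% to 11.9% in KO and 2.70% to 3.10% in Con of the summed level of the 3 enolases, and Eno1 88.0% to 91.2% in KO and 96.0% to 96.2% in Con. Eno1 therefore held most of the enolase level in every library.

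The phosphoglycerate mutases showed a similar split. Pgam1 (18648), the form of most tissues, had 709.6, 790.4 and 670.0 CPM in KO, against 1704, 1767 and 1778 CPM in Con (log2 fold change -1.27, SE 0.09, adjusted p = 1.10e-06). Pgam2 (56012), the muscle form, was low in Con and rose in KO, with 5.49, 4.93 and 5.41 CPM in KO, against 0.985, 0.629 and 0.560 CPM in Con (log2 fold change 2.84, SE 0.28, adjusted p = 8.83e-06). These are 47, 40 and 42 counts in KO and 13, 8 and 7 counts in Con, without overlap. Per kilobase of exon, Pgam2 reached 1.30% to 1.68% in KO and 0.0665% to 0.122% in Con of the pair. Pgam5 (72542), in spite of its name a protein phosphatase of mitochondria, had 59.5, 54.0 and 55.1 CPM in KO, against 68.5, 65.9 and 61.6 CPM in Con (log2 fold change -0.22, SE 0.08, adjusted p = 0.0364). Its call was lost when any library other than KO replicate 1 was left out (adjusted p of 0.0606 to 0.14), and with DESeq2 (0.159) or RLE scaling (0.0976).

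The step to lactate was lower as well. Ldha (16828), the A subunit of lactate dehydrogenase, had 1322, 1264 and 1113 CPM in KO, against 4055, 4045 and 3997 CPM in Con (log2 fold change -1.71, SE 0.10, adjusted p = 2.59e-07). Every KO library lay below every Con library, and the fitted level was 3.27-fold lower. Its level per kilobase of exon was 651 ± 56.9 in KO and 2128 ± 16.5 in Con (CPM per kilobase).

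The bases before the start sites of 3 genes that fell, Pgk1, Ldha and Pgam1, and of Tkt, a pentose phosphate gene that rose, are shown because the 5-letter core ACGTG of the hypoxia response element was looked for there. They are 160 bases upstream of the most upstream RefSeq start of each gene (GRCm38.p6), 5′ to 3′ on the gene's strand. Capitals mark ACGTG or its reverse complement CACGT. The genes shown were picked by no stated rule. Genes that fell without a match, Pfkl and Pfkp among them, and genes that rose with one, G6pdx and Pdhb, are not shown.
Pgk1, chrX:106186940-106187099, plus strand: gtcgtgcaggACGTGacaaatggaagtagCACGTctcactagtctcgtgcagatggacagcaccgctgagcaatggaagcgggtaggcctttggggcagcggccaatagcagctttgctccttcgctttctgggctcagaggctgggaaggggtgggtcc
Ldha, chr7:46845644-46845803, plus strand: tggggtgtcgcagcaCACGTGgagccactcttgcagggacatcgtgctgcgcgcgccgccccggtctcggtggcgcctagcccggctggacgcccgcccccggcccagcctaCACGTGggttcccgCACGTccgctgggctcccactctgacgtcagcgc
Pgam1, chr19:41911711-41911870, plus strand: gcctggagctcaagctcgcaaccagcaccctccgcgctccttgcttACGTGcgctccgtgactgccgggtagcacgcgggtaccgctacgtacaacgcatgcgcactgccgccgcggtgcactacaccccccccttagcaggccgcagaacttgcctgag
Tkt, chr14:30548971-30549130, plus strand: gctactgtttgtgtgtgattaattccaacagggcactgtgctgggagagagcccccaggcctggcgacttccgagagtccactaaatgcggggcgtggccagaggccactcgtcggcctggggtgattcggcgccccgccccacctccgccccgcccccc
No annotated GENCODE M21 exon overlaps these stretches. Pgk1 held 2 matches, 150 and 131 bases before the start, and Pgam1 held 1 at 114 bases. Ldha held 5, of which 4 form 2 palindromes CACGTG, the E-box letters, since ACGTG is part of CACGTG. Tkt held none. In windows of 250 bases before to 50 after each start, read on both strands, a match lay in at least 1 window of 6 of the 11 glycolytic genes that fell and have a window (Aldoa, Gapdh, Ldha, Pgam1, Pgk1 and Pkm). None of the 7 TCA cycle genes with a window, 1 of the 5 pentose phosphate genes (G6pdx) and none of Pfkl, Pfkp, Tpi1 and Eno2 held any. At the pyruvate dehydrogenase step Pdhb, which was higher in KO, and Pdk3, which did not pass, held a match, and none of the 3 lower genes did, Pdk1 included. Of the 2 lower genes of the anaplerotic and aspartate group with a window, Pcx held one. Of the 6673 tested genes with a window 28.7% held a match. Of single windows, 25% of those of tested genes and 19.6% of those of all genes did. For the 36 enzyme genes with a window the share of genes was 27.8%, close to that of the tested genes. CACGTG was in 7.15% of all windows and in 10.1% of those of tested genes. By gene, it was in 11.9% of tested genes and in 5.56% of the 36 enzyme genes. A gene with several windows has more chances to hold a match, and a match of letters does not show that a factor binds.

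**Figure D2:**
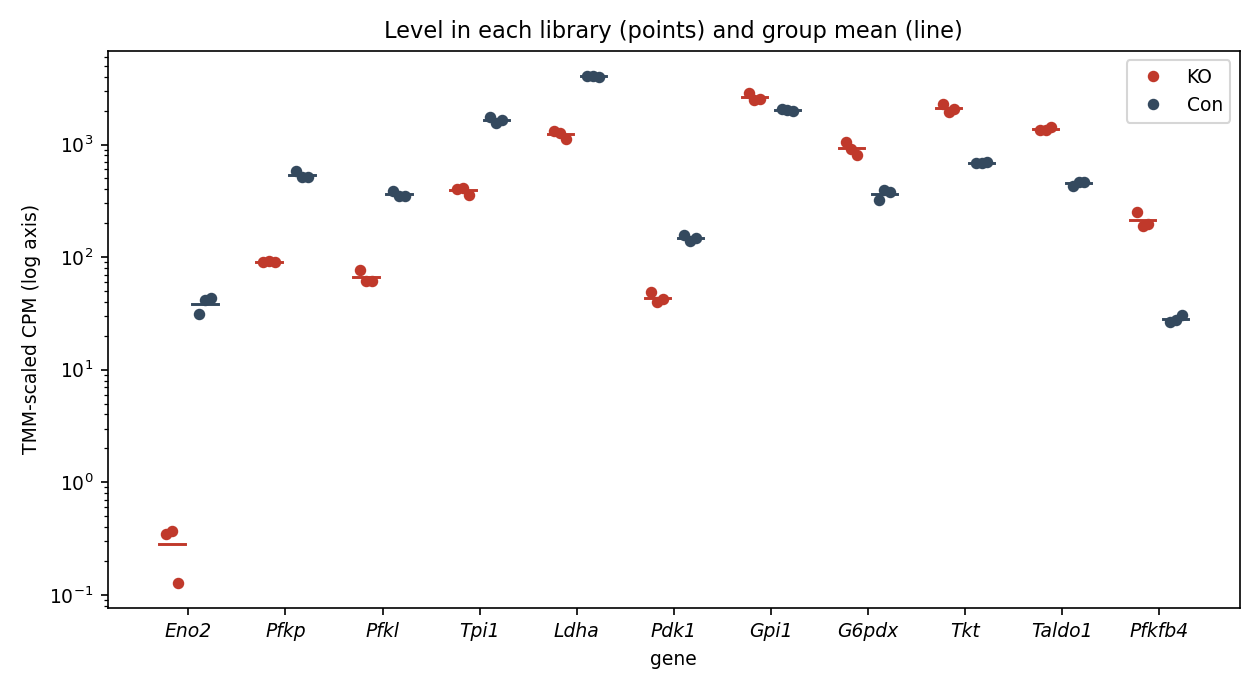
TMM-scaled CPM of 11 of the enzyme genes in each library (log axis), with KO left of Con in each pair, points for libraries and lines for group means. From Eno2 to Pdk1 every KO library lies below every Con library, and from Gpi1 to Pfkfb4 every KO library lies above; for Gpi1 the difference was 0.018 on the log2 scale with library size only.

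The regulator Pfkfb4 went against the phosphofructokinases. Pfkfb4 (270198) encodes a bifunctional enzyme that makes and breaks fructose 2,6-bisphosphate, an activator of phosphofructokinase. It had 252, 189 and 198 CPM in KO, against 26.3, 27.4 and 30.5 CPM in Con (log2 fold change 2.92, SE 0.13, adjusted p = 5.29e-08), 7.59-fold higher in KO with no overlap. It was the highest log2 fold change among the 39 genes under each of the TMM, RLE, upper-quartile and library size scalings, but Pgam2 was higher without KO replicate 1 (2.81 for Pgam2 and 2.78 for Pfkfb4) and without Con replicate 1 (3.13 for Pgam2 and 2.89 for Pfkfb4). It was the 1 gene of its family measured here.

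All 5 pentose phosphate genes measured rose in KO, and 4 of them by more than 2-fold (39.6% of all genes were higher and 22.8% at least 2-fold higher). Together they took 0.403% to 0.436% of counts in KO and 0.189% to 0.191% in Con. In the oxidative branch, G6pdx (14381), glucose 6-phosphate dehydrogenase, which commits glucose to the pathway and makes NADPH, had 1053, 907 and 813 CPM in KO, against 322, 398 and 378 CPM in Con (log2 fold change 1.34, SE 0.12, adjusted p = 5.09e-06). Pgls (66171), the lactonase of the next step, had 118, 124 and 114 CPM in KO, against 48.3, 45.7 and 49.6 CPM in Con (log2 fold change 1.31, SE 0.08, adjusted p = 3.83e-07). KO lay above Con in every library for both, with a wider spread for G6pdx, in which KO replicate 1 and Con replicates 2 and 3 were the higher ones of their groups.

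In the non-oxidative branch, Tkt (21881), transketolase, had 2280.0, 1926 and 2087 CPM in KO, against 689, 687 and 693 CPM in Con (log2 fold change 1.60, SE 0.09, adjusted p = 2.79e-07). Taldo1 (21351), transaldolase, had 1342, 1353 and 1429 CPM in KO, against 426, 467 and 465 CPM in Con (log2 fold change 1.60, SE 0.08, adjusted p = 1.56e-07). Both were 3.04-fold higher in KO. Counts of Taldo1 for each count of Tkt were 0.589, 0.703 and 0.685 in KO, against 0.618, 0.680 and 0.671 in Con, with overlapping groups. Rpia (19895), ribose 5-phosphate isomerase, rose less, with 180.2, 194 and 155 CPM in KO, against 144, 113 and 111 CPM in Con (log2 fold change 0.52, SE 0.12, adjusted p = 0.00299). Con replicate 1 was the highest Con library for Rpia and still below the 3 KO libraries. With library size only Rpia no longer passed (0.16, adjusted p = 0.283), and the other 4 did. Late neutrophil markers, at 16.1% to 18.7% of counts in KO and 1.06% to 1.16% in Con, were higher in the same libraries, and their part was not tested.

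The balance of both pathways was compared within libraries, where scaling has no effect. Pentose phosphate counts for each glycolytic count were 0.279, 0.272 and 0.285 in KO, against 0.0449, 0.0481 and 0.0474 in Con. Counts of Tkt for each count of Ldha were 1.72, 1.52 and 1.87 in KO, against 0.170, 0.170 and 0.174 in Con, and counts of G6pdx for each count of Pfkl were 13.8, 14.7 and 13.3 in KO, against 0.836, 1.13 and 1.09 in Con. In each of these ratios the KO libraries lay above all Con libraries. A ratio shows that the genes changed unequally and not which of them changed.

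**Figure D3:**
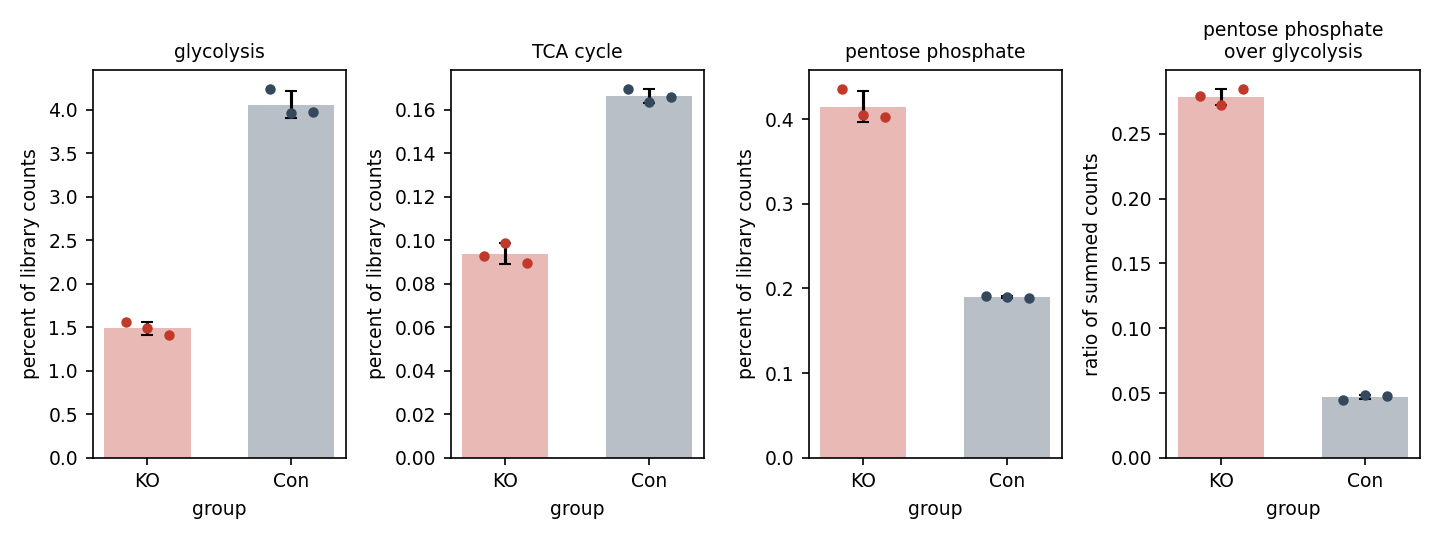
Share of all counts of a library in the 15 glycolytic, 9 TCA cycle and 5 pentose phosphate genes, and the ratio of pentose phosphate to glycolytic counts, for KO (left) and Con (right). Bars are means, error bars SD (n = 3 each) and points libraries. Glycolysis took 1.49% in KO and 4.06% in Con, and pentose phosphate genes 0.415% in KO and 0.190% in Con.

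At the pyruvate dehydrogenase step, which links glycolysis to the TCA cycle, 3 of 6 genes fell and 1 rose, against 42.4% lower and 39.6% higher among all genes. The share that fell was near that of all genes. Pdk1 (228026), a kinase that inhibits the complex and is a known HIF-1 target, had 48.7, 39.7 and 42.2 CPM in KO, against 158, 139.8 and 148 CPM in Con (log2 fold change -1.77, SE 0.10, adjusted p = 2.44e-07). Pdk3 (236900), another kinase of the complex, had 94.8, 92.0 and 76.4 CPM in KO, against 103, 92.3 and 82.1 CPM in Con (log2 fold change -0.08, SE 0.11, adjusted p = 0.552), with overlapping groups. Counts of Pdk1 for each count of Pdk3 were 0.514, 0.432 and 0.552 in KO, against 1.54, 1.52 and 1.81 in Con. Per kilobase of exon, Pdk1 made up 14.97% to 18.4% in KO and 38.2% to 42.4% in Con of the pair. Among the subunits of the complex, Dlat (235339), the acetyltransferase core, was lowest in fold, with 63.3, 60.4 and 51.1 CPM in KO, against 84.9, 86.6 and 82.6 CPM in Con (log2 fold change -0.54, SE 0.10, adjusted p = 4.96e-04). Dld, the dehydrogenase subunit that the complex shares with oxoglutarate dehydrogenase, averaged 135 ± 7.12 CPM in KO and 183 ± 9.31 CPM in Con (log2 fold change -0.44, SE 0.08, adjusted p = 6.42e-04). Both lay below Con in every KO library. Pdhb (68263), the beta subunit of the first enzyme, had 134, 139 and 133 CPM in KO, against 105, 108 and 114 CPM in Con (log2 fold change 0.31, SE 0.08, adjusted p = 0.00346), above Con in every library, but it was at -0.042 with library size only (adjusted p = 0.642). Pdhx, the binding protein of the complex, averaged 27.0 ± 3.11 CPM in KO and 30.6 ± 0.864 CPM in Con and did not pass (log2 fold change -0.18, SE 0.11, adjusted p = 0.158), although it did without KO replicate 1 (-0.28, adjusted p = 0.0394). After TMM scaling, subunits of the same complex lay on both sides of 0. With library size only, 5 of the 6 genes were lower and 0 higher, where 53.6% of all genes were lower and 29.8% higher.

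The 9 TCA cycle genes measured were all lower in KO, where 42.4% of all genes were, and none by 2-fold. The median of their log2 fold changes was -0.40, and those described here ran from -0.78 to -0.18. Their share was 0.0898% to 0.0990% of counts in KO and 0.164% to 0.170% in Con. Grouped here by its symbol and counted among the 9 is Aco1, which acts in the cytosol and is no enzyme of the mitochondrial cycle. Aco1 (11428), known also as an iron-sensing RNA-binding protein, averaged 42.9 ± 3.08 CPM in KO and 67.0 ± 3.67 CPM in Con (log2 fold change -0.64, SE 0.09, adjusted p = 1.04e-04). Its groups did not overlap. Among the isocitrate dehydrogenases the fall was deepest for Idh2. Idh2 (269951), the mitochondrial form that makes NADPH, had 89.9, 104 and 97.7 CPM in KO, against 164, 172 and 164 CPM in Con (log2 fold change -0.78, SE 0.08, adjusted p = 1.47e-05). Idh3a (67834), the catalytic subunit of the NAD-dependent form, had 69.4, 72.8 and 53.4 CPM in KO, against 85.4, 87.7 and 88.4 CPM in Con (log2 fold change -0.42, SE 0.11, adjusted p = 0.0069). Idh3b (170718), a further subunit, had 92.0, 111 and 88.3 CPM in KO, against 113, 117 and 116 CPM in Con (log2 fold change -0.24, SE 0.10, adjusted p = 0.0424), and KO replicate 2 came close to the Con libraries. For each of these 3 genes the groups did not overlap. Suclg2, a subunit of succinate-CoA ligase, was at -0.40 (SE 0.09). Suclg1 (56451), its partner, showed the smallest difference of the branch, with 91.5, 90.4 and 83.0 CPM in KO, against 99.99, 99.8 and 101 CPM in Con (log2 fold change -0.18, SE 0.08, adjusted p = 0.0484). The other steps measured fell by little. Cs, citrate synthase, averaged 375 ± 11.4 CPM in KO and 445 ± 15.1 CPM in Con (log2 fold change -0.25, SE 0.08, adjusted p = 0.0128), and Fh1, fumarase, averaged 70.3 ± 2.31 CPM in KO and 83.7 ± 2.49 CPM in Con (log2 fold change -0.25, SE 0.08, adjusted p = 0.0113). The count of 9 rests partly on genes near the threshold. It was 5 without Con replicate 3, 6 without Con replicate 1, 6 without Con replicate 2, 7 without KO replicate 3, 8 with the replicate number as a block and 6 with Con replicates 2 and 3 summed. Cs lost its call without Con replicate 2 (adjusted p = 0.0746) or 3 (0.0964), and Fh1 without Con replicate 1 (0.0506) or 3 (0.0678). Idh3b lost it when any library other than KO replicate 2 was left out (0.0923 to 0.158), and Suclg1 without KO replicate 3 or any Con replicate (0.0974 to 0.193). Both also lost it with DESeq2 (0.132 and 0.202) and RLE scaling (0.103 and 0.147). Late neutrophil markers, at the shares given above, were higher in the same libraries, and their part was not tested.

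TCA cycle counts for each glycolytic count were 0.0594, 0.0665 and 0.0635 in KO, against 0.0400, 0.0414 and 0.0416 in Con, so within a library the cycle took more reads relative to glycolysis in KO. Of the enzymes that feed the cycle or exchange its products, Pcx (18563), pyruvate carboxylase, which makes oxaloacetate, had 6.89, 4.32 and 7.21 CPM in KO, against 14.6, 18.4 and 23.3 CPM in Con (log2 fold change -1.61, SE 0.24, adjusted p = 1.42e-04). Its KO libraries held 35 to 59 counts. Got2, the mitochondrial aspartate aminotransferase, averaged 241 ± 12.4 CPM in KO and 308 ± 5.46 CPM in Con (log2 fold change -0.35, SE 0.08, adjusted p = 0.00187). Got1 (14718), the cytosolic form, had 75.6, 71.2 and 78.6 CPM in KO, against 86.0, 83.1 and 84.8 CPM in Con (log2 fold change -0.17, SE 0.08, adjusted p = 0.0635). Its KO values lay below those of Con in each library, and it passed without KO replicate 3 (-0.21, adjusted p = 0.0344), with upper-quartile scaling (-0.26, adjusted p = 0.0102) and with library size only (-0.53, adjusted p = 0.000143).

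Other genes of the same routes were counted by list, and these counts are to be read against the 39.6% of all genes that rose and the 42.4% that fell. Of 7 carriers of glucose and monocarboxylates tested, 3 rose and 4 fell, a split near that of all genes. Slc2a1, the glucose carrier GLUT1, had 75.0, 78.8 and 111 CPM in KO, against 463, 487 and 493 CPM in Con (log2 fold change -2.45, SE 0.14, adjusted p = 3.23e-07). Bsg, basigin, a chaperone of the lactate carriers, averaged 350.0 ± 20.3 CPM in KO and 999 ± 30.0 CPM in Con (log2 fold change -1.51, SE 0.08, adjusted p = 2.16e-07). Among those that rose was Slc2a3, the glucose carrier GLUT3, named after its values were seen, which averaged 861 ± 114 CPM in KO and 466 ± 50.01 CPM in Con (log2 fold change 0.89, SE 0.12, adjusted p = 8.83e-05). Of 13 other glucose and glycogen enzymes 6 rose and 6 fell, a split close to that of all genes tested. Adpgk, a glucokinase that uses ADP, had 1324, 928 and 1066 CPM in KO, against 50.8, 40.5 and 46.0 CPM in Con (log2 fold change 4.59, SE 0.16, adjusted p = 1.51e-08). Aldoc, aldolase C, averaged 2.96 ± 0.345 CPM in KO and 145 ± 4.27 CPM in Con (log2 fold change -5.61, SE 0.11, adjusted p = 1.82e-09), against -1.36 for Aldoa. Both aldolase genes fell; the difference between their falls was not tested. Of 15 other enzymes and carriers linked to pyruvate and the cycle, 2 rose and 11 fell, where 39.6% of all genes rose and 42.4% fell. Slc25a1, the mitochondrial citrate carrier, averaged 35.01 ± 0.670 CPM in KO and 181 ± 5.07 CPM in Con (log2 fold change -2.37, SE 0.08, adjusted p = 1.18e-08), and Me1, cytosolic malic enzyme, 1.53 ± 0.444 CPM in KO and 18.9 ± 3.02 CPM in Con (log2 fold change -3.63, SE 0.24, adjusted p = 6.04e-07). Of 6 regulators tested 2 rose and 3 fell, again near the split of all genes. Egln3, an oxygen sensor that is itself a HIF target, was at -3.60 (SE 0.12) and Myc, a known activator of glycolytic genes, at -1.53 (SE 0.08). The other that fell, Hif1a, named after its values were seen, was at -0.79 (SE 0.09). The 2 that rose, named after their values were seen, were Vhl, part of the ligase that marks HIF for breakdown, at 1.15 (SE 0.10) and Nrf1, nuclear respiratory factor 1, at 0.90 (SE 0.09). Any part of these regulators in the changes of the enzyme genes was not tested.

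**Figure D4:**
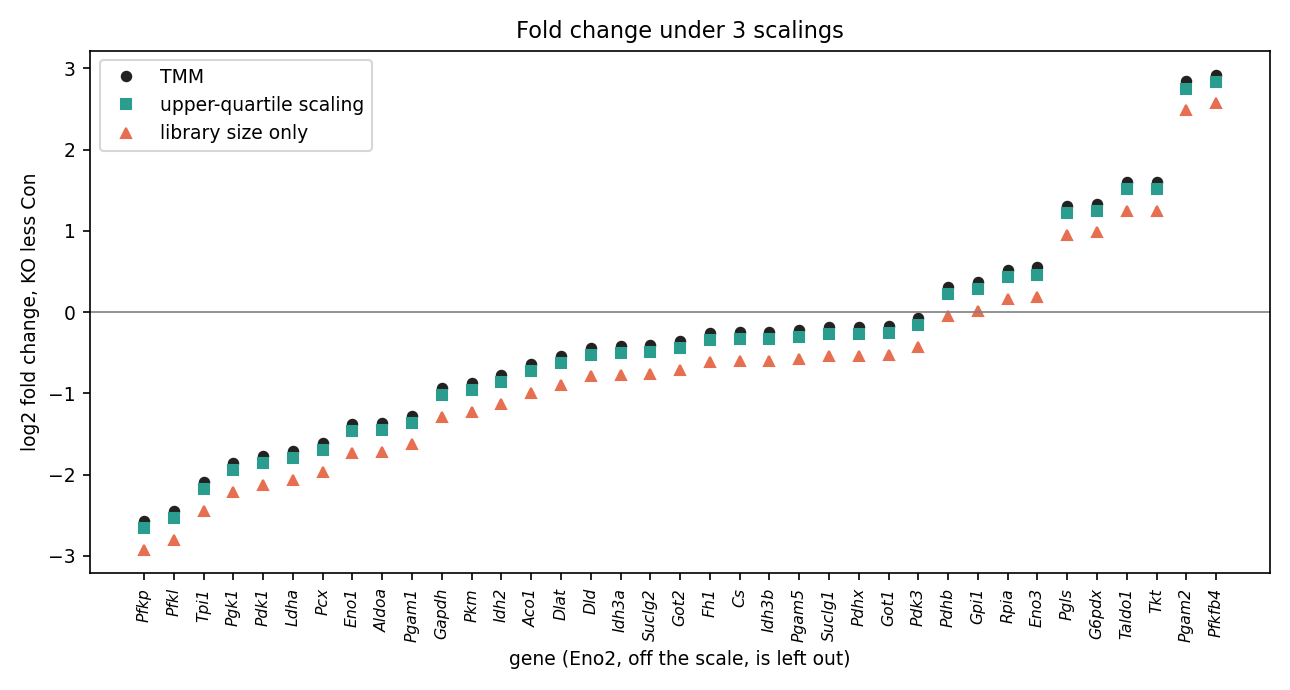
Log2 fold change (KO less Con, y axis) of 37 of the enzyme genes, ordered by their value, under TMM, upper-quartile and library size scaling. Library size only moves every gene down by a like amount, which takes Pdhb to -0.042 and Gpi1 to 0.018, while the 4 pentose phosphate genes Pgls, G6pdx, Taldo1 and Tkt stay above 0.9.

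Reads may be shared between close copies. Counts that are not whole occurred in 6 of the 39 genes (Aldoa, Eno1, Eno3, Gapdh, Gpi1 and Pfkp) and in 1449 of the 9295 genes of the table, for a reason not given in the sources used here. Eno1b, a copy of Eno1, took 0.000481 to 0.000802 counts for each count of Eno1 in KO and 0.000899 to 0.00169 in Con. G6pd2, a copy of G6pdx, held 12 to 15 counts in KO and 8 to 17 in Con.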

How the data were processed

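Bone marrow RNA of 6 samples was isolated by TRIzol and sequenced as BGI mRNA libraries, per the labels' protocols. The authors deposited estimated counts for each gene and library without scaling, per the file headers. Values that are not whole occur in 1449 of the 9295 genes, and all were rounded for the tests. Aligner and counter: not given in the sources used here. GRCh38 is the build in the submitters' processing notes. It is human and the gene IDs are murine, so no coordinates were taken from the counts. All columns were matched to libraries by name.

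KO and Con were compared with edgeR 4.0.16 in R 4.3.3 (filterByExpr by group, TMM factors of 0.8759 to 1.17, quasi-likelihood F test after a robust fit, two-sided, without covariates). P-values were adjusted by Benjamini-Hochberg over the 8358 genes that passed the filter, with a threshold of 0.05. CPM are counts scaled by library total times TMM factor, and errors are SD over 3 libraries. Before the TMM factor is applied, 1 CPM stands for 8.9 to 11.4 counts per library. Counting intervals are exact (95%) and reflect counting error alone, as reads carry no molecular identifiers. The fit was tested on simulated data. Lengths for levels per kilobase are the union of GENCODE M21 basic exons, found for all 39 genes. Start sites and upstream bases are those of RefSeq (GRCm38.p6), and all 39 genes matched by gene ID, of which 36 have a promoter window.

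The genes and lists were chosen with earlier results of these data known. Every enzyme gene is counted, and the values of 1 TCA cycle gene are not reported here. Values by library are given for families with several forms and for the highest and lowest fold change of each step. Other pathway genes are named if among the 2 with the smallest adjusted p of their list. Slc2a3, Hif1a, Vhl and Nrf1 were named outside this rule. Alternatives were DESeq2 1.42.0, limma-voom (limma 3.58.1), 3 other scalings, no filter, a stricter filter (at least 5 CPM in at least 3 libraries), leaving out each library, summing Con replicates 2 and 3, and the replicate number as a block.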

Additional observations from a re-analysis of the deposited data

How the results depend on the processing

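Of the 39 enzyme genes, 27 kept their direction and their side of the threshold under all 15 alternatives that could test them, Pgam2 being filtered out by the stricter filter. Library size as the only scaling gave 6 higher enzyme genes in place of 10, 1 higher glycolytic gene in place of 3, and 0 higher and 5 lower genes at the pyruvate dehydrogenase step in place of 1 and 3. It moved the median of the 39 genes to -0.76 and turned Pdhb to -0.042. This follows from the scaling, which moved the median of all genes by -0.35. Over the fits that leave out 1 library, lower enzyme genes counted 21 (without Con replicate 3) to 26, lower TCA cycle genes counted 5 to 9, and Pdk3, which did not pass, was between -0.14 and 0.021. The numbers of higher and lower genes over all genes tested stayed within 1.5 times of the counts given under each alternative. With the replicate number as a block, 10 enzyme genes were higher and 24 lower, and Suclg1 (adjusted p = 0.0859) and Pgam5 (adjusted p = 0.0503) lost their calls. Idh3b, Suclg1 and Pgam5 did not pass with DESeq2, RLE scaling, the stricter filter or Con replicates 2 and 3 summed, nor Cs with the last of these. Same-numbered KO and Con libraries correlated at -0.00435 to 0.028 in their deviations from group means, so no pairing by number was seen. With 3 libraries a group, and Con replicates 2 and 3 so alike, this check cannot exclude one. Suclg1, Idh3b, Pgam5, Got1, Pdhx, Cs and Fh1, all near 0 on the log2 scale, changed sides of the threshold under more than 1 alternative. Pdk3, the gene nearest 0, passed with library size only (log2 fold change -0.43, adjusted p = 0.00723). Like all calls here, theirs rest on 3 libraries a group. The cause of the changes other than those of scaling was not tested.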
